A study of Mus musculus with 10 samples.

Results

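This account describes 6602 distal sites in the genome of cultured mouse neural stem and progenitor cells that carried H3K27ac without H3K4me3 or H3K27me3 in control cells and H3K9cr in both control and crotonate-treated cells. The sites were selected on those 5 peak lists, so their presence there is a description and no finding. They made up 12.5% of the 52922 H3K27ac peaks called in control cells and 19.4% of the 34089 that were distal. A site was a control H3K27ac peak on chromosomes 1 to 19, under 5000 bp wide, whose summit lay more than 5 kb from both annotated ends of every protein-coding gene. It had to overlap an H3K9cr peak in each treatment by at least 1 bp and no control H3K4me3 or H3K27me3 peak. Of 50974 control H3K27ac peaks on these chromosomes and under that width, 34089 were distal, 30885 of these had no H3K4me3, 29979 had neither H3K4me3 nor H3K27me3, 9447 of those had control H3K9cr and 6602 had H3K9cr in both treatments. The crotonate H3K27ac list was not used to choose them, and 390 of the 6602 met no peak in it.

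The cells came from the E13.5 mouse forebrain and were grown with 20 ng/ml of epidermal growth factor and 20 ng/ml of fibroblast growth factor. Low-passage cultures were treated for 24 h with water, as the control, or with crotonate at 10 mM. Crotonate is a short-chain fatty acid from which cells make crotonyl-CoA. Native chromatin immunoprecipitation and sequencing (on chromatin that is not crosslinked) was done for H3K4me3, H3K9cr, H3K27ac and H3K27me3 in each treatment. Each mark had 1 library per treatment, so no difference between treatments could be set against a spread between cultures, and no test or p-value is given. The labels name no strain and do not say how many embryos or cultures a library came from. The antibody catalogue number was the same in both treatments of a mark, but the vendor entries of the H3K4me3 and H3K27me3 antibodies were not the same in control and crotonate, and those of the H3K9cr and H3K27ac antibodies were given in control alone. A weaker peak in these bulk cultures may come from fewer cells with the mark or from less of it per cell, which cannot be told apart. Control H3K4me3 and H3K27ac were both found at annotated ends of 9 of the 10 neural stem or progenitor marker genes. Sox2, Nes and Vim were among them, and the marks did not have to be at the same end. Both were at ends of 3 of 5 neuronal, 3 of 5 oligodendrocyte lineage, 1 of 4 astrocyte and 0 of 6 microglial marker genes. They were at ends of 1 of 5 endothelial, 1 of 5 mesenchymal and 1 of 3 blood marker genes.

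H3K27ac and H3K9cr are marks that lysine acyltransferases, p300 and CBP among them, place on histone H3 at active promoters and enhancers. Enhancers are stretches of DNA that raise transcription of a gene from a distance. They usually carry H3K27ac with little H3K4me3, which is the mark of promoters, and lose it where Polycomb places H3K27me3. Crotonylation uses crotonyl-CoA in place of acetyl-CoA. Neither H3K4me1 nor enhancer activity was measured here, so the sites are enhancer candidates at most.

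Most of the sites lay away from any annotated start, and their sequences were not read here. RefSeq start windows of GRCm38 (250 bases before to 50 after a gene's start) overlapped 264 of the 6349 sites on the chromosomes with such windows, or 4.16% (exact 95% interval 3.68 to 4.68%). Windows of long noncoding RNA genes overlapped 211 of these sites, and windows of protein-coding genes, at starts inside the annotated gene, overlapped 54. Start windows overlapped 4.47% of all distal H3K27ac sites on those chromosomes, which include these and the ones with H3K4me3. Among the other distal sites without control H3K4me3 or H3K27me3, the share was 3.25% with H3K9cr in control only. It was 2.26% with H3K9cr in crotonate only and 1.02% with H3K9cr in neither. For 38 of the sites described here the H3K27ac summit itself lay in such a window. The windows of the 4 strongest of those are shown because they are the stretches of DNA under an H3K27ac summit that could be read. Each runs 5′ to 3′ on the strand of its gene, with matches to the searched motifs in capitals.
Gm34684, long noncoding RNA, chr17:9726450-9726749, minus strand: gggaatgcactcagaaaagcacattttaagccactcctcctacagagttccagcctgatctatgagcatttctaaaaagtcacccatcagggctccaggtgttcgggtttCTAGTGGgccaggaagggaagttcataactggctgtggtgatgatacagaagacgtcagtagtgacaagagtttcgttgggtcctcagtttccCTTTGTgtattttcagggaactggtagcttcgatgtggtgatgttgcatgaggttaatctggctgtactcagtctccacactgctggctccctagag
Gm19554, long noncoding RNA, chr12:105899561-105899860, plus strand: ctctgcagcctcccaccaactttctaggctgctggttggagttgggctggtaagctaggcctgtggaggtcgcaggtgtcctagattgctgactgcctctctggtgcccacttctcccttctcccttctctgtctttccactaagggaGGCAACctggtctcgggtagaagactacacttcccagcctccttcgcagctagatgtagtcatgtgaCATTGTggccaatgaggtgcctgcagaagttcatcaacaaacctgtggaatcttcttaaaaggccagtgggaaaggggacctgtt
Gm28809, long noncoding RNA, chr6:125480925-125481224, plus strand: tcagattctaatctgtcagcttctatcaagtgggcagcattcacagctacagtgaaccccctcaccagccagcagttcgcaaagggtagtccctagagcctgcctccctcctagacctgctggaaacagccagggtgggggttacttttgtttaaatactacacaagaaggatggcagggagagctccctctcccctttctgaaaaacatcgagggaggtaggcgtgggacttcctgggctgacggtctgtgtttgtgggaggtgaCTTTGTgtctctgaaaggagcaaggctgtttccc
Rgs3, internal start, chr4:62619422-62619721, plus strand: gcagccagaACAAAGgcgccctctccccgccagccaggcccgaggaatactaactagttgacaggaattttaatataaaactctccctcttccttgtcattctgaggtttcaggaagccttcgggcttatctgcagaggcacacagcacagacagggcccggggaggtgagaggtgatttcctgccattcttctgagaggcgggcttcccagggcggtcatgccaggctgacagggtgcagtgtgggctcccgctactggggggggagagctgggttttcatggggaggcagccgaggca

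Matches on either strand are in capitals. The Sox-type motif ACAAAG stands in Gm34684, Gm28809 and Rgs3, on the reverse strand in the first 2. The CTCF core CCACNAG stands on the reverse strand in Gm34684. Gm19554 holds, both on the reverse strand, another Sox-type motif spelled ACAATG, and the Rfx-type motif, which is spelled GTTGCC. The H3K27ac summit of the Gm34684 site lay at base 197 of its window and had a control fold enrichment of 29.4, the authors' ratio of fragments at the summit to local background. The same site had 23.9-fold H3K27ac in crotonate, and its H3K9cr partners were 18.3-fold in control and 11.9-fold in crotonate. The Gm19554 site had H3K27ac of 24.5-fold and 31.3-fold and H3K9cr of 23.6-fold and 15.7-fold in control and crotonate, and it met a weak crotonate H3K4me3 peak of 3.87-fold. At Gm28809 the values were 20.7-fold and 24.7-fold for H3K27ac and 26.4-fold and 14.3-fold for H3K9cr. At the internal start of Rgs3, which encodes a regulator of G protein signalling, they were 19.6-fold and 11.4-fold for H3K27ac and 25.6-fold and 9.24-fold for H3K9cr. All 4 of these starts thus sat in a site with each acyl mark in both treatments.

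Across the 311 start windows that overlapped a site, ACAAAG was found on either strand in 107, or 34.4% (29.1 to 39.98%), beside 22.2% of the 11311 long noncoding RNA windows and 18.6% of all 31396 windows of the same length. The E-box CAGCTG was found in 27.3% of them (22.5 to 32.6%), beside 17.6% of long noncoding RNA windows and 16.3% of all windows. For the other 8 motifs the share of long noncoding RNA windows lay inside the interval of the windows that overlapped a site. The NFI-type TTGGCA was in 19.6% (15.3 to 24.5%) beside 15.9% of long noncoding RNA windows and 14.1% of all windows, and GTTGCC was in 12.2% of each. CCACNAG was in 17.7% of them (13.6 to 22.4%) beside 15.1% of all windows. Another Sox-type motif, ACAATG, was in 59 of the 311 (14.8 to 23.8%) beside 15.3% and 12.2%. The E-box CAGATG was in 19.6% (15.3 to 24.5%), below the 21.9% of long noncoding RNA windows and above the 17.2% of all windows. The AP-1 motif TGACTCA was in 6.75% (4.23 to 10.1%) beside 6.25% and 5.26%. The homeodomain motif TAATTA was in 8.36% (5.53 to 12.01%) beside 6.67% and 5.27%, and the POU motif TGCAAAT in 3.54% (1.78 to 6.24%) beside 4.54% and 4.05%. These are matches of letters in windows at starts, which 4.16% of the sites touched, and they say nothing of the factors or of the other sites. Some windows of the same gene overlap each other, so the same match can count more than once. The intervals take no account of that. Base composition was neither measured nor matched between the groups.

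The sites overlapping an annotated microRNA hairpin numbered 9, with 11 of the 919 hairpins on chromosomes 1 to 19 between them. Hairpins at other distal sites were not counted. In these 9 the DNA encoding a small regulatory RNA lay inside the acylated stretch. The mature sequences are given for the site that held a pair of hairpins of 1 family, and for the strongest of the 9 by control H3K27ac, with the seed (bases 2 to 8) in capitals.
mmu-miR-181a-5p: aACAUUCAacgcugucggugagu
mmu-miR-181b-5p: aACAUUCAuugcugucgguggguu
mmu-miR-148b-3p: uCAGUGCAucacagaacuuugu
The first 2 share the seed ACAUUCA and lie in the site chr1:137965698-137967573, whose nearest gene end, that of Ptprc, was 96.4 kb away. Its H3K27ac was 16.8-fold in control and 9.23-fold in crotonate, and its H3K9cr 14.2-fold and 5.98-fold. The site holding Mir148b, chr15:103284424-103287010 assigned to Copz1, had H3K27ac of 19.5-fold and 8.30-fold and H3K9cr of 13.1-fold and 6.35-fold. The other 7 sites with a hairpin also had H3K27ac in both treatments, as did 94.1% of all 6602 sites.

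Of the 6602 sites, 6212 met a crotonate H3K27ac peak, or 94.1% (93.5 to 94.6%). The 390 that did not were 5.91% of the sites, while 25.3% of all 52922 control H3K27ac peaks did not. Among the other distal sites without control H3K4me3 or H3K27me3, crotonate H3K27ac was present at 2382 of 2845 (83.7%, 82.3 to 85.1%) with H3K9cr in control only. It was present at 997 of 1224 (81.5%, 79.2 to 83.6%) with H3K9cr in crotonate only, and at 10244 of 19308 (53.1%, 52.3 to 53.8%) with H3K9cr in neither. The intervals cover counting error only, and neighbouring sites are not independent.

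The 4 classes differed in the strength of their control H3K27ac, which the rule bears on, so the shares were also read within quartiles of all control H3K27ac peaks by −log10 q, the authors' measure of a peak's significance. In the weakest quartile, crotonate H3K27ac was present at 58.9% of the 331 sites (53.4 to 64.3%). The shares there were 37.0% (36.1 to 38.0%) with H3K9cr in neither treatment, 42.3% (35.5 to 49.3%) with H3K9cr in control only and 68.2% (63.5 to 72.7%) with H3K9cr in crotonate only. In the second quartile they were 82.3%, 60.9%, 66.9% and 83.0% in the same order, and in the third 97.9%, 87.7%, 93.6% and 97.8%. In the strongest quartile every site of each class had crotonate H3K27ac, 1954 of the 1954 described here among them. Within each of the 3 lower quartiles, sites with H3K9cr in both treatments lay above those with none and those with control H3K9cr alone. Strength can still differ within a quartile, and width was not matched. The median width was 1613 bp for the sites, 1278 bp with H3K9cr in control only, 646 bp in crotonate only and 437 bp in neither. By quartile of the sites' own width, crotonate H3K27ac was present at 79.6% of the narrowest and 100% of the widest. In the second and the third quartile by −log10 q, sites with H3K9cr in both treatments lay within the interval of those with crotonate H3K9cr alone. In the weakest quartile they lay below that class, at 58.9% against 68.2%, and the intervals overlapped only between 63.5% and 64.3%.

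**Figure D1:**
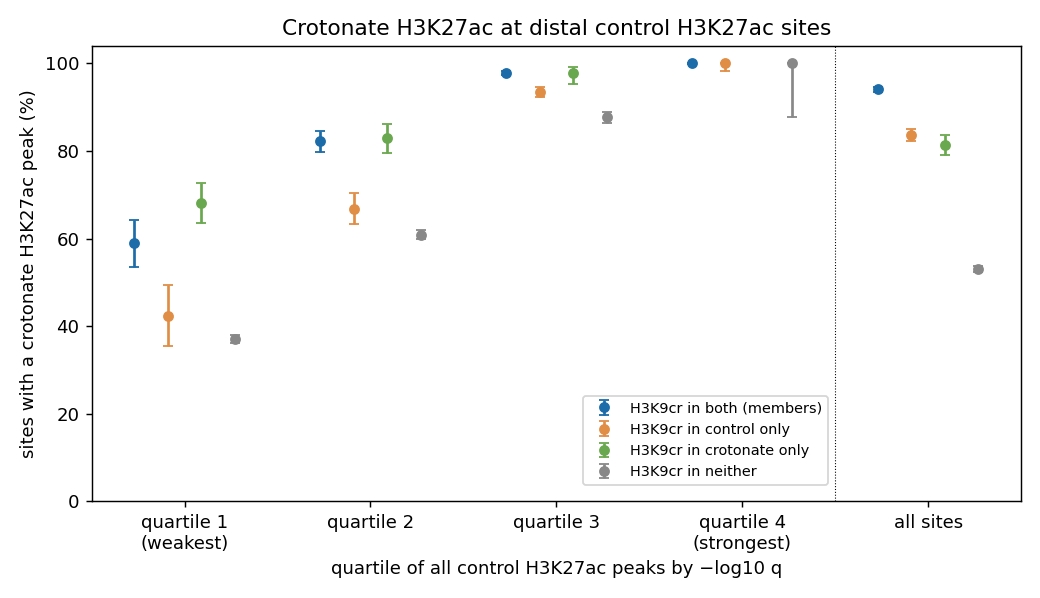
The vertical axis gives the percentage of distal control H3K27ac sites with a crotonate H3K27ac peak, and the horizontal axis the quartile of the whole control H3K27ac list by −log10 q, with all sites at the right. Points are the 4 classes by H3K9cr, bars are exact 95% intervals, and the class with crotonate H3K9cr only is not drawn in quartile 4, where it has 2 sites. The sites with H3K9cr in both treatments go from 58.9% in quartile 1 to 100% in quartile 4 and stand at 94.1% in all.

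The sites varied widely in strength. The control H3K27ac fold enrichment ran from 2.21 to 53.5 with a median of 9.0, and the pileup, the depth of fragments over the summit, from 10 to 248 with a median of 40. The lower and upper quartiles of fold enrichment were 5.84 and 14.4. In crotonate the 6212 sites with a partner had a median H3K27ac fold enrichment of 7.61. The median H3K9cr fold enrichment was 7.60 in control and 5.21 in crotonate. These values come from libraries of unknown depth and were called list by list, so they were read within each list. The whole lists had medians of 5.59 and 4.62 for H3K27ac and of 14.7 and 9.42 for H3K9cr in control and crotonate. The median site thus stood above 65.9% of the control and 70.3% of the crotonate H3K27ac list, but above 34.5% of the control and 31.7% of the crotonate H3K9cr list. Relative to the peaks of each mark, the sites were in the upper part for H3K27ac and in the lower part for H3K9cr, in both treatments. The rule bears on these ranks, since it left out peaks at gene ends or with H3K4me3, which the whole lists hold. Over all distal H3K27ac sites, which include these, the median control H3K27ac was 4.62-fold. Where those distal sites had H3K9cr, its median was 8.02-fold in control and 5.95-fold in crotonate, not far from the values of the sites described here.

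**Figure D2:**
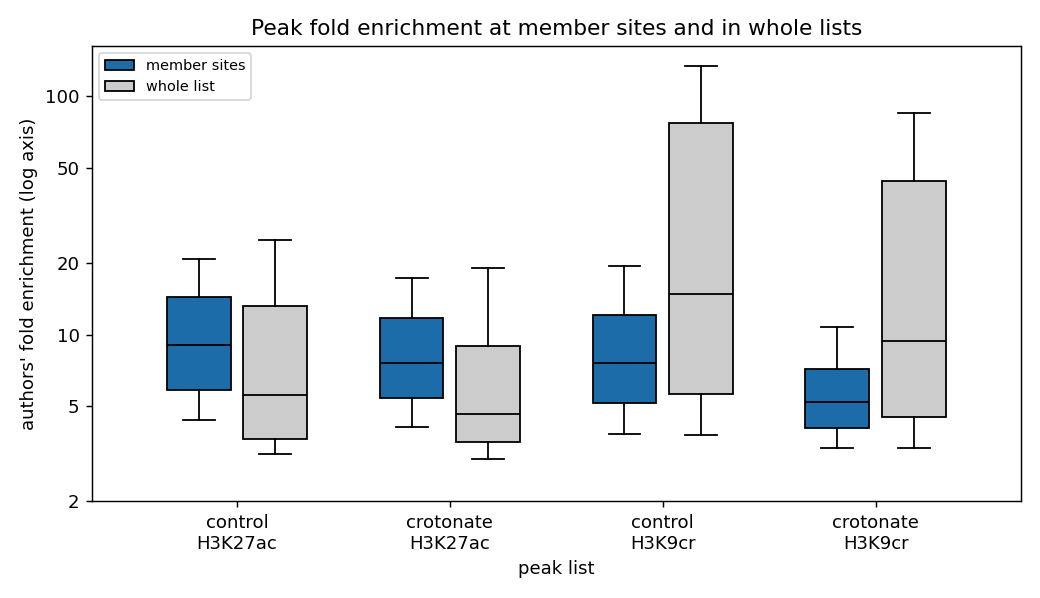
The vertical axis is the authors' fold enrichment on a log scale for the 4 lists named on the horizontal axis. Boxes span the quartiles with a line at the median and whiskers reach the 10th and 90th percentile, blue for the 6602 sites (6212 in crotonate H3K27ac) and grey for the whole list. The blue medians lie above the grey ones for H3K27ac and below them for H3K9cr.

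Within the sites, strength kept much of its order between treatments. Of the quartile of sites with the strongest control H3K9cr, 1120 of 1651 (67.8%, 65.5 to 70.1%) were also in the strongest quartile in crotonate. For H3K27ac, among the 6212 sites with both peaks, 1117 of the 1553 strongest in control (71.9%, 69.6 to 74.1%) were also in the strongest quartile in crotonate. Spearman's rho over sites was 0.65 for H3K9cr (6602 sites) and 0.78 for H3K27ac (6212 sites) between treatments. Between the 2 marks it was 0.68 in control and 0.49 in crotonate. These correlations are descriptions over sites of single libraries, and both members of each pair share the width and position of the site.

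The 2 acyl marks peaked close to each other. The control H3K9cr summit lay a median of 70 bp from the H3K27ac summit, and within 150 bp of it, about the length of DNA in a nucleosome, at 65.7% of the sites. In crotonate the H3K9cr summit lay a median of 108 bp from the control H3K27ac summit and within 150 bp at 57.8%. The sites were 1613 bp wide at the median, and control H3K9cr covered a median of 60.1% of that width and crotonate H3K9cr 46.0%. The control and crotonate H3K9cr peaks of a site overlapped each other at 6540 of the 6602 sites. At 124 sites the control H3K9cr summit was over 1 kb away, and at 157 the crotonate summit. The H3K9cr summit lay outside the H3K27ac peak at 209 sites in control and 245 in crotonate.

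Of the 10 strongest sites by control H3K27ac, 3 lay inside a gene body, and the summits of the 10 stood between 8.12 kb (Ift27) and 404.9 kb (Tnc) from the nearest gene end. The highest control value, 53.5-fold, was at chr4:64450251-64453942, where the nearest gene end was that of Tnc, which encodes the matrix glycoprotein tenascin C of neural stem cell niches. There crotonate H3K27ac was 47.0-fold and H3K9cr 58.9-fold in control and 44.7-fold in crotonate. The next was in the body of Dgkg, a diacylglycerol kinase, at chr16:22506879-22511713, with H3K27ac of 49.6-fold and 31.6-fold and H3K9cr of 30.6-fold and 12.2-fold. At chr14:67132241-67137097, 63.2 kb from Ppp2r2a, a regulatory subunit of protein phosphatase PP2A, H3K27ac was 48.4-fold and 39.1-fold and H3K9cr 92.0-fold and 49.5-fold. All 10 of the strongest sites had crotonate H3K27ac, between 28.2-fold and 51.1-fold. The remaining 7 were assigned to Ift27, Rasa3, Irf2bp2, Cdh20, Lyrm7, Rad51b and Slc30a5. Irf2bp2, a transcriptional corepressor, had the highest crotonate H3K27ac of the 10, with 46.9-fold in control. Assignment here means the gene whose body holds the summit or, failing that, the gene with the nearest end. It is a position and not a target.

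The sites with the strongest crotonate H3K9cr were of another kind. At Tnrc18, Zmiz1 and Sall3 the crotonate H3K9cr partner was 180.0-fold, 112.7-fold and 95.4-fold and in control 178.3-fold, 176.0-fold and 173.0-fold, while control H3K27ac was 4.86-fold, 3.16-fold and 8.03-fold. The H3K9cr summit lay 5887 bp, 3255 bp and 9756 bp from the H3K27ac summit in crotonate, in H3K9cr peaks 13626 bp, 7563 bp and 17104 bp wide. At Rhcg and at Tet3, which encodes a DNA demethylation enzyme, the partner was 91.4-fold and 79.9-fold in crotonate with its summit 2811 bp and 3111 bp away. In control those 2 sites had their own narrow H3K9cr peaks of 4.45-fold and 3.38-fold. The control H3K27ac of the Tnrc18, Zmiz1, Rhcg and Tet3 sites was below the 5.59-fold median of its list, and that of the Sall3 site was above it. The crotonate H3K9cr partners of the 5 sites were between 5735 bp and 17104 bp wide, while the control partners at Rhcg and Tet3 measured 576 bp and 432 bp.

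The 390 sites without crotonate H3K27ac were the weak and narrow end of the set. Their median control H3K27ac was 4.14-fold and their median width 448 bp, beside 9.49-fold and 1685 bp for the 6212. By quartile of the sites' own control H3K27ac, crotonate H3K27ac was present at 79.7%, 96.8%, 99.9% and 100%. By quartile of control H3K9cr it was present at 88.6%, 92.9%, 96.7% and 98.2%. For 79 of the 390 (20.3%, 16.4 to 24.6%) a crotonate H3K27ac peak lay within 1 kb without touching the site. The strongest of the 390 was at chr1:68046046-68046600 in Erbb4, which encodes a neuregulin receptor, with control H3K27ac of 10.2-fold and H3K9cr of 18.4-fold in control and 7.37-fold in crotonate. Others were in Ncam1 (9.24-fold control H3K27ac), in the axon guidance receptor gene Robo3 (8.80-fold), 238.6 kb from Sox2 (8.76-fold) and 63.7 kb from Rnd3 (8.03-fold). None of the 390 exceeded 10.2-fold.

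H3K4me3 was absent from every site in control by the rule, and 179 sites met a crotonate H3K4me3 peak, or 2.71% (2.33 to 3.13%). Of all 36547 control H3K27ac peaks on these chromosomes without control H3K4me3, 1.05% did. The shares in the other distal classes were 0.211% (0.0774 to 0.458%) with H3K9cr in control only, 0.654% (0.283 to 1.28%) in crotonate only and 0.0311% (0.0114 to 0.0676%) in neither. With each crotonate list and its control list brought to the same number of peaks, the share was 1.67%. The H3K4me3 was weak: its median fold enrichment was 4.78, beside 91.6 for the whole crotonate list. At 8 of the 179 (4.47%, 1.95 to 8.62%) a control H3K4me3 peak lay within 1 kb, beside 66 of the 6423 sites without crotonate H3K4me3 (1.03%).

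These 179 sites had more H3K9cr than the rest but not more H3K27ac. Their median control H3K9cr was 12-fold and crotonate H3K9cr 8.32-fold, beside 7.60-fold and 5.0-fold for the other 6423, and their median control H3K27ac was 8.27-fold beside 9.0-fold. By quartile of control H3K9cr the share with crotonate H3K4me3 was 0.787%, 2.06%, 2.55% and 5.45%, while by quartile of control H3K27ac it was 3.88%, 2.18%, 1.70% and 3.09%. They were inside a gene body at 45.8%, beside 61.4% of the others. Of the 171 on chromosomes with start windows, 15 overlapped a RefSeq start window (8.77%, 4.99 to 14.1%), beside 249 of 6178 without crotonate H3K4me3 (4.03%). The strongest by H3K27ac were the Ppp2r2a site described above (crotonate H3K4me3 of 4.65-fold) and the Cdh20 site (6.45-fold), in the gene of a cadherin adhesion protein. The next were at Coro1c (3.87-fold), which encodes an actin-binding coronin, Pde4b (3.51-fold), a cAMP phosphodiesterase, and Tuba1a (3.61-fold), an alpha-tubulin.

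Crotonate H3K27me3 met 30 sites, or 0.454% (0.307 to 0.648%), beside 0.264% of all control H3K27ac peaks on these chromosomes without control H3K27me3. In the other distal classes it met 0.387% (0.193 to 0.691%) with H3K9cr in control only and 0.245% (0.0506 to 0.715%) in crotonate only. Both of these intervals overlapped that of the sites. With H3K9cr in neither treatment it met 0.0880% (0.0513 to 0.141%). The share was 0.300% when the overlap had to reach 50% of the shorter peak, 0.262% with lists of equal length and 0.962% when peaks within 1 kb counted as overlapping. At 18 of the 30 (60%, 40.6 to 77.3%) a control H3K27me3 peak lay within 1 kb, beside 308 of the 6572 sites without crotonate H3K27me3 (4.69%). Crotonate H3K27ac was present at 66.7% of the 30. The strongest were near Fam161a, at 31.9-fold control H3K27ac and 3.27-fold crotonate H3K27me3, and near Veph1, Slc22a23, Gramd3 and S100a10, with H3K27me3 between 2.87-fold and 5.72-fold.

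The sites were spread over all 19 chromosomes, at 17.3 to 22.1% of the distal H3K27ac sites of each, and between 91.1% and 96.6% of them had crotonate H3K27ac. Their summits lay a median of 33.3 kb from the nearest gene end. They were inside a protein-coding gene body at 61.0% (59.8 to 62.2%), beside 53.6% with H3K9cr in control only, 72.5% in crotonate only and 62.4% in neither. Of the 6602, 4960 stood alone, 1184 stood in pairs and 458 (6.94%, 6.34 to 7.58%) in 138 clusters of 3 or more whose summits followed each other at 10 kb or less. Among all 34089 distal H3K27ac sites, which include these, 35.6% stood in clusters of that kind. That larger set lies more densely on the same chromosomes, so more of its summits fall within 10 kb of each other. The 2 shares therefore cannot be compared directly. The share of the 6602 was 1.64% with a gap of 5 kb and 13.6% when peaks within 1 kb counted as overlapping. In 122 of the 138 clusters every site had crotonate H3K27ac.

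The largest cluster held 9 sites over 52.3 kb of chromosome 12, 8 assigned to Lrrc74a and 1 to Irf2bpl. Control H3K27ac ran there from 4.08-fold to 23.8-fold and crotonate H3K27ac from 3.81-fold to 28.0-fold. Control H3K9cr ran from 4.01-fold to 39.7-fold and crotonate H3K9cr from 3.33-fold to 21.6-fold. Clusters of 6 sites stood at Sdc3, which encodes the heparan sulfate proteoglycan syndecan-3, over 17.1 kb, at Gse1 over 21.7 kb, and at the semaphorin gene Sema5b over 32.7 kb. The Sdc3 and Sema5b clusters had median control H3K27ac of 20.3-fold and 14.4-fold, while that at Gse1 had 4.85-fold and was the one of these with a site lacking crotonate H3K27ac. A cluster of 5 at Zfp710 spanned 20.8 kb.

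**Figure D3:**
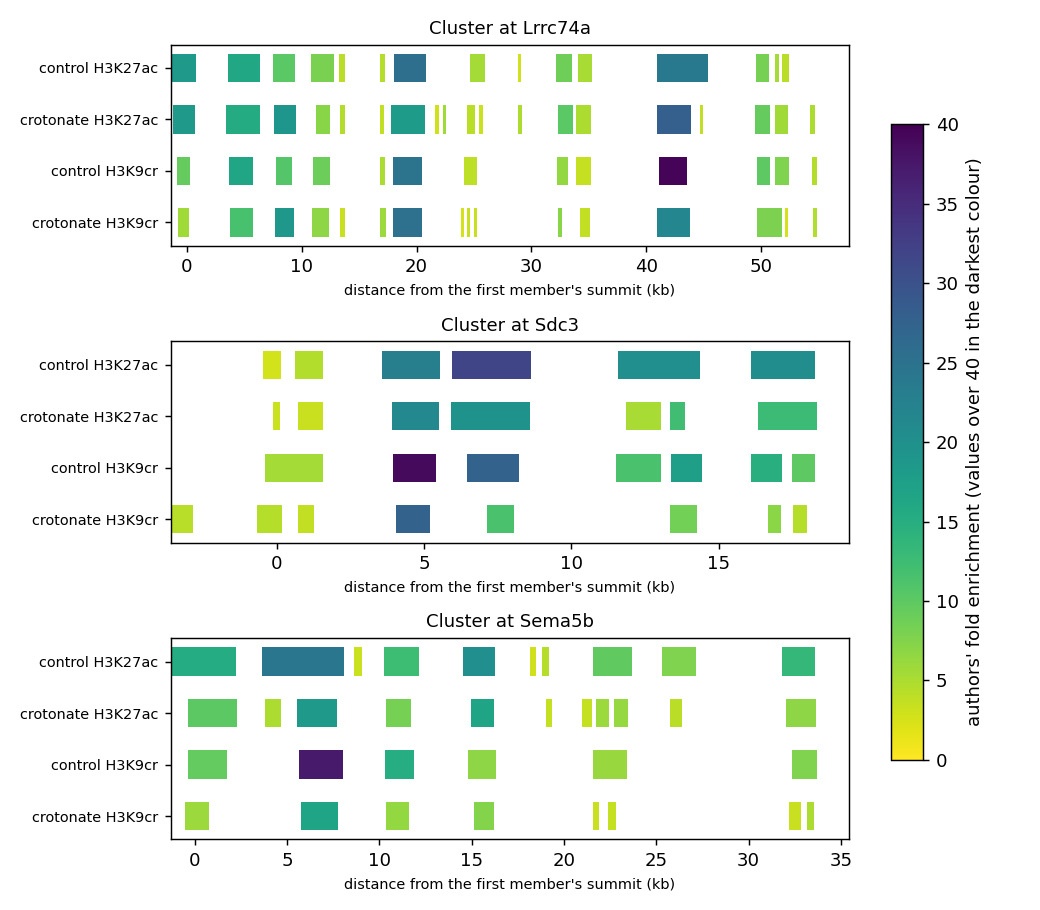
Each panel maps 1 cluster, with distance from the summit of its first site in kb on the horizontal axis and 1 row per list, and every peak of the list in that stretch drawn to scale, sites or not, coloured by the authors' fold enrichment. At the sites the rule required control H3K27ac and both H3K9cr lists to overlap. Elsewhere blocks can lack a counterpart, such as the 7.78-fold control H3K27ac block from 25.3 to 27.2 kb at Sema5b, which has no H3K9cr block in either treatment.

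The sites were assigned to 3338 of the 20665 protein-coding genes on chromosomes 1 to 19, or 16.2%. One site was assigned to 1917 genes, 2 to 4 sites to 1185, and 5 or more to 236. The gene with the most was Nfia, a nuclear factor I transcription factor that drives glial competence, with 20 sites. Its control H3K27ac ran from 3.03-fold to 24.3-fold with a median of 9.97-fold, and 18 of the 20 had crotonate H3K27ac. Msi2, an RNA-binding protein of neural stem cells, had 18 sites, all with crotonate H3K27ac, at a median of 12.6-fold in control and 8.52-fold in crotonate. Bach2, a bZIP transcription factor, had 16 with crotonate H3K27ac at every one. Zbtb20, a zinc finger factor of cortical progenitors, and Gse1 had 15 each, of which 13 and 14 had crotonate H3K27ac. Rad51b and Zfp608 had 14 each, and Zmiz1, Zswim6, Ncam1, Nav1 and Nav2 13 each. Most are long genes: Zbtb20 spans 758.7 kb and Nfia 540.8 kb. Several also held many other distal H3K27ac sites. The sites were 20 of 73 distal H3K27ac sites at Nfia, 18 of 86 at Msi2 and 16 of 44 at Bach2. They were 15 of 37 at Zbtb20, 15 of 36 at Gse1, 13 of 58 at Zmiz1 and 13 of 54 at Nav2. Over all genes 19.4% of distal H3K27ac sites were of this kind.

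**Figure D4:**
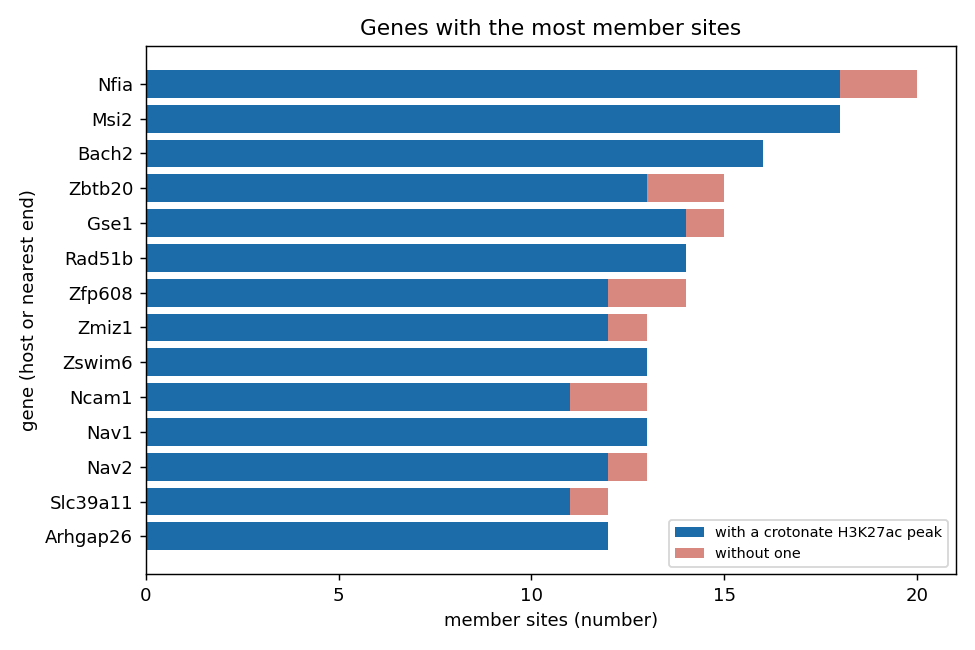
Horizontal bars give the number of sites assigned to each of 14 of the 15 genes with the most, split into sites with (blue) and without (red) a crotonate H3K27ac peak. Nfia has 20, of which 18 are blue, and Msi2, Bach2, Rad51b, Zswim6, Nav1 and Arhgap26 have no red part.

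Gene length bears on these counts, since a longer gene holds more distal sequence. Of genes under 10 kb 4.78% had a site, and of genes over 100 kb 51.3%. Of the 39 neural stem and progenitor genes on these chromosomes, 25 had at least 1 site (64.1%, 47.2 to 78.8%), beside 16.2% of all genes, with 102 sites of which 96 had crotonate H3K27ac. Distal sites with H3K9cr in neither treatment were also frequent at these genes, 69.2% of which had one, beside 27.6% of all genes. Under 10 kb, 8 of 17 of the neural genes had a site with H3K9cr in both treatments (23.0 to 72.2%), beside 4.78% of all genes of that length. From 10 to 30 kb 3 of 5 did (14.7 to 94.7%) beside 10.7%, and from 30 to 100 kb 5 of 6 (35.9 to 99.6%) beside 23.4%. Over 100 kb 9 of 11 did (48.2 to 97.7%), an interval that holds the 51.3% of all genes. Sox2, the SRY-box factor of neural stem cells, had 10 sites although the gene spans 2.47 kb. The strongest, at chr3:34531406-34534054 and 117.7 kb from the gene, had H3K27ac of 25.4-fold in control and 28.6-fold in crotonate and H3K9cr of 25.4-fold and 11.3-fold. Another 5 of the 10 lay between 408.0 kb and 489.4 kb on the other side, with control H3K27ac from 4.08-fold to 20.9-fold. The high mobility group gene Hmga2 had 6 sites and 5 with crotonate H3K27ac.

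Of 20 nuclear factor I and glial competence genes, 12 had a site (60.0%, 36.1 to 80.9%). Next after Nfia came Zbtb20 with 15 sites, of which 13 had crotonate H3K27ac, and Nfib with 9, of which 9 had it. Sox9, which acts with nuclear factor I in gliogenesis, had 6, of which 6 had crotonate H3K27ac. At Sox9 the control H3K27ac values were 4.37-fold at the weakest and 23.8-fold at the strongest site, which lay 280.5 kb from the gene. Of 29 genes of epidermal and fibroblast growth factor signalling and its feedback, 19 had a site (65.5%, 45.7 to 82.1%), and 49 of their 52 sites had crotonate H3K27ac. Myc had 7 sites, and Phlda1 and the feedback inhibitors Spred2 and Spry2 had 5, 5 and 4. The cells were grown in both of these factors in each treatment.

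Of 41 genes of the Notch, Wnt, Bmp and Shh pathways 18 had a site (43.9%), led by Tcf7l2, a Wnt effector, with 8 and Smad3, a transforming growth factor beta effector, with 7. Of 28 forebrain patterning genes 11 had one (39.3%), with 34 of 35 sites carrying crotonate H3K27ac. Besides Tcf7l2, the homeodomain factor gene Meis2 had 5. Of 29 neuronal differentiation genes 10 had one (34.5%), with Ncam1 at 13 and Myt1l at 7, and 30 of their 34 sites had crotonate H3K27ac. Of 24 acylation enzymes and readers 4 had one (16.7%, 4.74 to 37.4%), a share near the 16.2% of all genes. They were Kat2b and Mllt3, a crotonyl-lysine reader, with 2 each, and Ep300 and Crebbp, the genes of p300 and CBP, with 1 each. Of 32 ribosomal protein genes 2 did, Rpl11 and Rpl5. None of the 28 genes of other germ layers and tissues had a site, which allows a share of up to 12.3% by the exact interval. The median gene length was 3.45 kb in the ribosomal list and 6.42 kb in that of other tissues, beside 17.5 kb for all genes. Of all genes under 10 kb, 4.78% had a site, so the 16.2% of all genes is no measure for these 2 lists. A distal site with H3K9cr in neither treatment was assigned to 80.0% of the glial competence, 62.1% of the growth factor, 70.7% of the pathway, 50.0% of the patterning, 62.1% of the neuronal and 45.8% of the acylation genes, beside 27.6% of all genes. That share was 3.13% for the ribosomal genes and 14.3% for those of other germ layers and tissues. No difference between the classes of site was tested. These lists were chosen with earlier results of these data known, and they describe where the sites lie.

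Genes with a site more often carried marks at their ends, H3K27me3 as well as the active ones, read within 1 kb of both annotated ends. Control H3K4me3 was at an end of 2679 of the 3338 genes (80.3%, 78.9 to 81.6%), beside 60.4% of all genes and 74.0% of the 2002 genes whose distal sites all lacked H3K9cr. The association between a site and H3K4me3 at an end was present at each gene length: under 10 kb 8.02% of genes with H3K4me3 had a site and 2.39% of those without, and over 100 kb 55.3% and 37.0%. Control H3K27ac was at an end of 80.4% of the genes with a site, beside 58.9% of all. Control H3K27me3 was at an end of 31.7% (30.1 to 33.3%) of the genes with a site. It was at an end of 22.5% of all genes and 26.3% of those whose distal sites all lacked H3K9cr. H3K4me3 and H3K27me3 were both at gene ends of 28.1% of the genes with a site, beside 17.2% of all. Nfia was an exception, with H3K27ac but no H3K4me3 or H3K9cr at either annotated end in control.

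Among genes with control H3K27me3 at an end, those with a site more often had no crotonate H3K27me3 peak there, in all and in the 2 quartiles with the weakest control H3K27me3. Of 1059 genes with a site and control H3K27me3 at an end, 280 had none in crotonate (26.4%, 23.8 to 29.2%), beside 17.4% of all 4653 such genes and 14.7% (13.6 to 15.9%) of the 3594 without a site. Control H3K27me3 was also weaker at the former, with a median −log10 q of 24.9 against 44.3. In the weakest quartile by that measure the shares were 62.8% (57.3 to 68.1%) of 323 and 44.8% (41.4 to 48.3%) of 841, and in the second quartile 65 of 289 (17.8 to 27.7%) and 118 of 874 (11.3 to 15.9%). In the third quartile they were 3.78% and 3.56% and in the strongest 0.641% and 0.397%, with overlapping intervals. Among genes that also had H3K27ac at an end, the weakest quartile gave 70.4% (64.7 to 75.8%) with a site and 59.0% (54.7 to 63.2%) without. In the second quartile of that subset, 25.6% and 18.9%, the intervals overlapped. In the third quartile of that subset the share was lower with a site, at 4.44% (2.15 to 8.02%) beside 6.57% (4.51 to 9.19%), again with overlapping intervals, and in the strongest it was 1.25% beside 1.24%. Genes without control H3K27ac at an end had it in crotonate at 68 of 655 with a site (10.4%, 8.15 to 13.0%), beside 5.33% of all and 8.32% of those whose distal sites all lacked H3K9cr, whose interval overlapped.

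**Figure D5:**
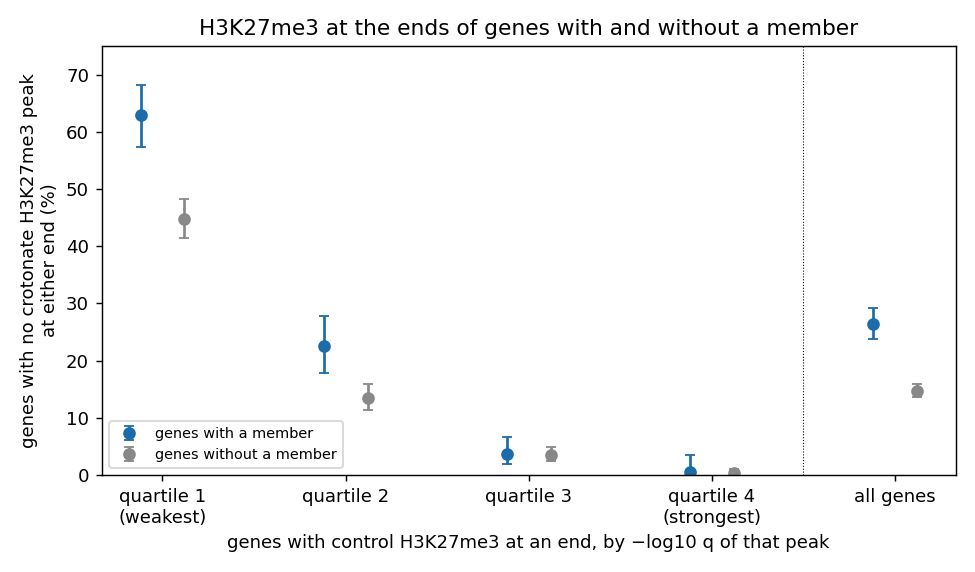
The vertical axis is the percentage of genes with control H3K27me3 at an annotated end that had no crotonate H3K27me3 peak at either end, and the horizontal axis the quartile of those genes by −log10 q of the control peak, with all at the right. Points are genes with (blue) and without (grey) a site and bars are exact 95% intervals. In quartile 1 the points are at 62.8% and 44.8%, in quartiles 3 and 4 they coincide within their intervals.

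The thresholds of the rule cut through continuous values. The site nearest to a gene end was 5002 bp from Chek2 with control H3K27ac of 11.4-fold, and the nearest one left out was 4992 bp from 3110082I17Rik with 8.51-fold. The widest site, in Ntm, measured 4997 bp (27.2-fold), and the narrowest one left out, at Cystm1, 5000 bp (27-fold). The smallest overlap with H3K9cr was 1 bp in control and 4 bp in crotonate.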

How the data were processed

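The 8 deposited peak lists, 1 per mark and treatment, were used, and the 2 inputs were not analysed here. The submitters' processing notes name Bowtie2 2.4.1, MACS2 2.2.7.1 and GRCm38. Not given in the sources used here are the calling settings, the use of the inputs and duplicate handling. Per the file headers, each peak has a pileup (a coverage signal at the summit), a fold enrichment (a ratio to local background), and −log10 p-value and −log10 q-value, all the authors'. Read totals are also missing from those sources, so the depth is unknown. Peaks at a q-value of up to about 0.05 were listed, so a missing peak may lie just under the calling limit.

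The sites and lists were chosen with earlier results of these data known. Peaks matched when they overlapped by at least 1 bp, and where several matched a site, the one with the highest fold enrichment was its partner. Start windows were held for all of chromosomes 1 to 19 but chromosome 18. Gene ends, symbols, start windows and microRNA sequences came from RefSeq (GRCm38.p6), and gene-end marks were read within 1 kb. Shares carry exact Clopper-Pearson 95% intervals for counting error only. PCR copies without molecular identifiers are not independent molecules. Named sites were the 10 strongest by control H3K27ac, and the 5 strongest by crotonate H3K9cr, without crotonate H3K27ac, with crotonate H3K27me3 and with crotonate H3K4me3. Named clusters were the 6 largest. Named genes were the 15 with most sites and up to 4 per list. Of these, 2 genes and a cluster are not reported here. Sox2 and Sox9 site values, the stratified gene-end comparisons and the choice of windows and microRNAs shown were added after values were seen. All 10 motifs searched, on both strands, are reported. Overlap and distance functions were tested on simulated intervals. Python 3.11.15, pandas 2.3.3, numpy 2.4.6, SciPy 1.17.1 and matplotlib 3.10.9 were used. Distance, gene types, overlap, q-value, list length, excluding lists, gene assignment and cluster gap were varied.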

Additional observations from a re-analysis of the deposited data

How the results depend on the processing

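The number of sites stayed between 5323 and 7066 under the alternatives run, and the number of genes with a site between 2808 and 3393. The share with crotonate H3K27ac was 95.7% when peaks within 1 kb counted as overlapping, 93.5% with −log10 q of at least 3 and 92.8% with lists of equal length, against 94.1%. The share with crotonate H3K4me3 was 1.67% with lists of equal length. The share with crotonate H3K27me3 was 0.300% with an overlap of 50% of the shorter peak, 0.962% with peaks within 1 kb and 0.262% with lists of equal length. The share inside a gene body was 66.2% when all gene types made a site distal or not and 62.2% with peaks within 1 kb. The share in clusters of 3 or more was 6.12% at 10 kb from gene ends, 5.86% with all gene types, 13.6% with peaks within 1 kb, 6.24% with −log10 q of at least 3 and 1.64% with a 5 kb gap. The shares of genes with H3K4me3 at an end and of neural stem and progenitor genes with a site stayed within their intervals under every alternative run. Requiring the 2 H3K9cr peaks to overlap each other, added after the data were seen, left 6540 sites and 94.1%. No paired analysis was possible because each group has 1 library. Depth is unknown, so weak peaks in 1 list may be missing from another for that reason, which was not tested.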

Other observations

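Sites that met every condition on the marks but failed the chromosome, the width or the distance condition were counted separately. On chromosome X, 111 of 625 distal H3K27ac sites (17.8%, 14.8 to 20.99%) had H3K9cr in both treatments without control H3K4me3 or H3K27me3, and 101 of the 111 had crotonate H3K27ac. A further 218 sites failed the width limit alone. They were 6012 bp wide at the median, had a median control H3K27ac of 26.8-fold, and all 218 had crotonate H3K27ac. Another 1357 sites lay within 5 kb of a gene end, and 1210 of them (89.2%, 87.4 to 90.8%) had crotonate H3K27ac.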
